A study of Mus musculus with 12 samples.

Results

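Astrocytes and neural stem cells of the mouse dentate gyrus were compared across the whole transcriptome. The 8 libraries of these cell types, of 12 in the series, entered the comparison, with 4 astrocyte and 4 stem cell libraries, and a gene was tested if 4 or more of the 8 libraries held 10 counts or more. This left 12831 of 50600 genes. All cells came from adult Nestin-GFP mice, which carry a green fluorescent protein reporter driven by regulatory sequence of Nestin, so the astrocyte donors carried the transgene as well, and no treatment was given. The strain was not given in the sources used here. Live cells negative for CD31 (endothelial), CD45 (immune), O1 and O4 (oligodendrocyte lineage) were sorted as stem cells when positive for both GFP and the glutamate transporter GLAST, and as astrocytes when positive for GLAST alone. Each library came from 50 cells and was preamplified as cDNA without molecular identifiers. The 2 populations therefore differ by definition in GFP only, and the astrocyte gate holds any GLAST-positive cell in which the reporter was not seen.

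Radial glia-like stem cells of the adult dentate gyrus and astrocytes are related cells. They share GLAST, glial metabolism and many transporters, and the stem cells divide rarely and can give rise to granule neurons. Mature astrocytes take up glutamate and potassium, move water through aquaporin-4, are coupled by connexins and supply lipids and lactate to neurons.

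Total counts per library lay between 5357232 and 6253680 in astrocytes and between 5031166 and 10435711 in stem cells. Between 9430 and 11655 genes had at least 10 counts in an astrocyte library, against 13368 to 14175 in a stem cell library, so the ranges did not overlap although stem cell library 4 had fewer counts than any astrocyte library. Levels are given as counts per 1000000 counts (CPM) on library sizes scaled by the TMM method, and fold changes as log2 of astrocyte over stem cell. The astrocyte libraries carry no replicate numbers in the count table and are called a to d. Astrocyte library a stood apart, with the fewest genes, a summed level of cytosolic ribosomal protein genes of 29964 CPM against 6413 to 11786 in the other astrocyte libraries, and a summed level of mature neuron genes of 10987 CPM against 2996 to 6356. In libraries of sorted pools, fewer cells of a type and less RNA per cell cannot be told apart.

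The sort genes were examined first. Slc1a3, which encodes GLAST, was abundant in both cell types, with 3512, 4348, 3794 and 5666 CPM in astrocytes a to d and 8186, 6378, 8553 and 6401 CPM in stem cells 1 to 4. All astrocyte libraries lay below all stem cell libraries, with a log2 fold change of -0.77 (SE 0.19) that did not pass the test (edgeR's quasi-likelihood test, Benjamini-Hochberg adjusted p = 0.106). The endogenous Nes transcript, whose regulatory sequence drives the reporter, had 4 counts in stem cell library 2 and 0 in the other 7 libraries, so the basis of the gate could not be seen in the counts. Ptprc, which encodes CD45, had 0 counts in all 8 libraries. Pecam1, which encodes CD31, had 74 counts in stem cell library 1 and at most 3 in any other.

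Few single genes passed the test. At an adjusted p under 0.05, 6 genes (0.0468% of those tested) were higher in astrocytes and 0 (0%) were lower by edgeR's quasi-likelihood test. At an unadjusted p under 0.05 there were 668 higher genes (5.21%) and 558 lower genes (4.35%). All 4 astrocyte libraries lay above all 4 stem cell libraries for 463 genes (3.61%) and below them for 817 genes (6.37%). Over all tested genes 7010 fold changes were positive (54.6%) and the median was 0.14. The median was -0.51 in limma-voom with quality weights and lay between 0.02 and 0.22 in the other alternatives. At an unadjusted p under 0.05, limma-voom gave 660 higher and 1100 lower genes, and DESeq2 1160 and 708. In every edgeR fit without an astrocyte library lower genes outnumbered higher ones, as with 1327 against 794 without library d. Without a stem cell library 481 to 535 were higher and 450 to 520 lower. The number of calls depended on the tool, since DESeq2 called 361 higher and 274 lower genes and limma-voom with quality weights 49 and 4. The number also changed in the fits without a library. There 3 genes were called higher without stem cell library 1, and 0 in either direction without stem cell library 3 or without stem cell library 4.

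**Figure D1:**
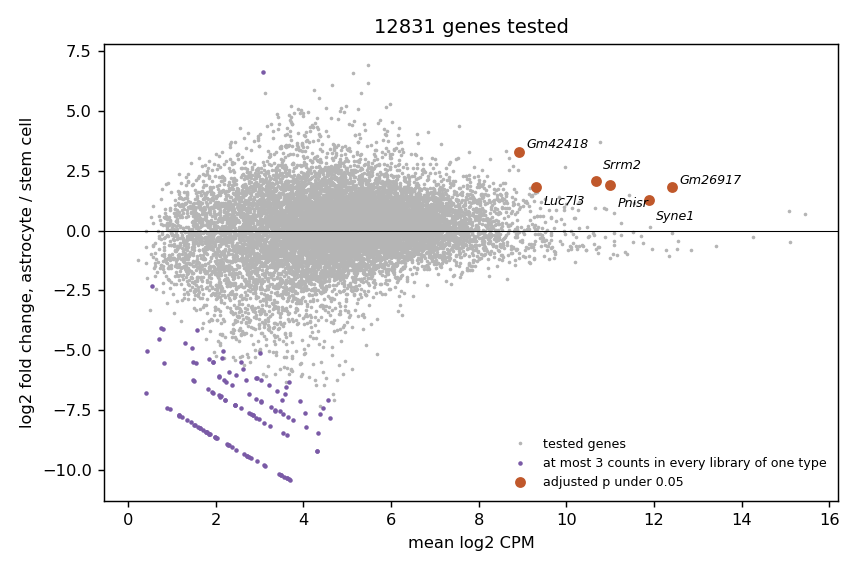
Log2 of the ratio of astrocyte to stem cell level (y axis) against mean log2 CPM (x axis) for the 12831 genes tested. Orange points are the 6 genes with an adjusted p under 0.05, all higher in astrocytes and all among the more abundant genes, and purple points are the 127 genes with at most 3 counts in every astrocyte library and the 1 with at most 3 in every stem cell library.

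Of the 6 genes that rose in astrocytes, 3 encode proteins of nuclear speckles or splicing. Pnisr, which encodes a serine and arginine-rich protein of nuclear speckles (chromosome 4, 21847583 to 21876475, GRCm38), had 2675, 4022, 3623 and 2687 CPM in astrocytes and 949, 932, 802 and 779 CPM in stem cells. The lowest astrocyte library was above the highest stem cell library by a wide margin, and the log2 fold change was 1.91 (SE 0.21, edgeR quasi-likelihood test, adjusted p = 0.00635). Srrm2, which encodes a scaffold protein of nuclear speckles (chromosome 17, 23790532 to 23824741), had 3368, 2909, 2426 and 1843 CPM in astrocytes against 587, 775, 635 and 531 CPM in stem cells. Its log2 fold change was 2.06 (SE 0.24, edgeR quasi-likelihood test, adjusted p = 0.00996). Luc7l3, which encodes a protein that associates with the U1 snRNP (chromosome 11, 94287890 to 94321988), had 1075, 1032, 1135 and 733 CPM in astrocytes against 233, 318, 313 and 242 CPM in stem cells, a log2 fold change of 1.85 (SE 0.26, edgeR quasi-likelihood test, adjusted p = 0.0434). Syne1, which encodes a large protein of the nuclear envelope that links nucleus and cytoskeleton (chromosome 10, 5020917 to 5551482), had 4714, 5332, 6579 and 4695 CPM in astrocytes against 2213, 2225, 2483 and 1847 CPM in stem cells. Its log2 fold change of 1.28 (SE 0.17, edgeR quasi-likelihood test, adjusted p = 0.0339) was the smallest of the 6. Luc7l3 was called in 1 and Syne1 in 2 of the 8 fits that left out a library.

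The remaining called genes lie side by side on chromosome 17 beside a ribosomal RNA annotation. The long noncoding gene Gm26917 (39843013 to 39846341, plus strand) had 7959, 8666, 9330 and 8012 CPM in astrocytes against 1761, 3073, 2499 and 2359 CPM in stem cells, a log2 fold change of 1.81 (SE 0.18, edgeR quasi-likelihood test, adjusted p = 0.00635). Gm42418 (39846958 to 39848788, plus strand) had 1253, 694, 931 and 653 CPM against 56.1, 120, 98.9 and 83.6 CPM, a log2 fold change of 3.30 (SE 0.36, edgeR quasi-likelihood test, adjusted p = 0.00635). Its exons overlap those of other genes over 99.5% of their length, among them CT010467.1, which is annotated as ribosomal RNA on the minus strand (39846353 to 39848827). Because the reads were counted without regard to strand, strand cannot assign reads in the shared bases to Gm42418 or to CT010467.1. By these positions Gm26917 ends just before both of them begin. Whether reads of Gm26917 also derive from ribosomal RNA was not tested. CT010467.1 itself had 1887, 1317, 8350 and 1301 CPM in astrocytes against 272, 241, 212 and 271 CPM in stem cells, and did not pass the test (edgeR, adjusted p = 0.0869). The authors removed reads that aligned to ribosomal RNA before counting, so these values are what was left after that step.

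**Figure D2:**
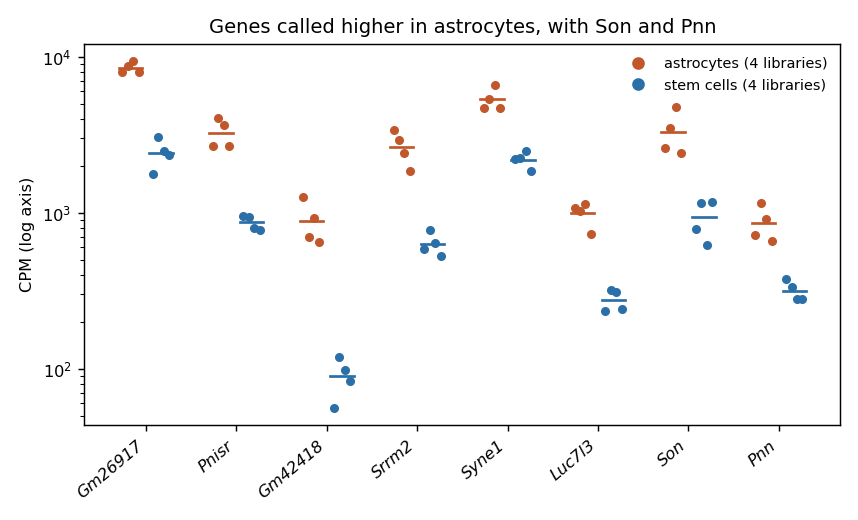
CPM (log axis) of the 6 genes called higher in astrocytes and of the speckle genes Son and Pnn in each library. Each point is a library and each short line the mean of 4, and for all 8 genes the astrocyte points lie above the stem cell points.

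Other speckle and splicing genes lay on the same side without passing the test. Son, which encodes a core protein of nuclear speckles, had 2594, 3498, 4745 and 2408 CPM in astrocytes against 790, 1152, 620 and 1178 CPM in stem cells (log2 fold change 1.82, SE 0.29, edgeR adjusted p = 0.083). Pnn, which encodes the splicing-associated protein pinin, had 723, 1152, 909 and 658 CPM against 376, 333, 278 and 279 CPM (log2 fold change 1.44, SE 0.28, edgeR adjusted p = 0.0923). Of 65 tested splicing factor genes, 2 were called higher (Srrm2 and Luc7l3), 42 had a positive fold change and 11 had all astrocyte libraries above, against 2 with all below. Over all tested genes the shares were 0.0468% called higher, 54.6% positive, 3.61% above and 6.37% below. The median of the splicing factor genes was 0.25, or 0.04 without astrocyte library b. It was close to the 0.14 of all genes, so by median the list as a whole stood little apart. The summed level of the list was 15012 to 19856 CPM in astrocytes and 9414 to 11480 CPM in stem cells. Srrm2, Luc7l3, Son and Pnn, which were named for their small p, make up a large part of the astrocyte sum. The sum therefore does not describe the list as a whole. Genes of the same rank outside this list were Arap2, which encodes a GTPase-activating protein, Clmn, Scaper and Tnik, which encodes a kinase of the Wnt and JNK pathways. Their log2 fold changes lay between 1.63 and 2.0 and their edgeR adjusted p between 0.0778 and 0.0869.

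Chromatin genes had the highest median among the lists with more than 20 tested genes in the fit over all 8 libraries. Of 40 chromatin and DNA methylation regulator genes tested, 35 had a positive fold change. All astrocyte libraries lay above for 8 and below for 1, where the shares over all tested genes were 3.61% and 6.37%. The median was 1.11, against 0.14 for all genes, and 0.85 without astrocyte library a. None was called at an adjusted p under 0.05 by edgeR. At an unadjusted p under 0.05, 10 were higher, where the share over all tested genes was 5.21%. Kmt2a, which encodes a histone H3 lysine methyltransferase, had 683, 469, 557 and 417 CPM in astrocytes against 159, 158, 197 and 119 CPM in stem cells (log2 fold change 1.75, SE 0.31, edgeR adjusted p = 0.0923). Chd4, which encodes the helicase of the NuRD complex, had 619, 674, 449 and 262 CPM against 130, 158, 155 and 159 CPM (log2 fold change 1.73, SE 0.35, edgeR adjusted p = 0.0923). Chd7 and Kmt2d had log2 fold changes of 1.69 and 1.25. The summed level of the list was 5260 to 7446 CPM in astrocytes and 2828 to 3076 CPM in stem cells.

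Neuronal genes also had higher values in the astrocyte libraries. Of 17 mature neuron genes tested, 16 had a positive fold change with a median of 2.30, or 1.27 without astrocyte library a. At an unadjusted p under 0.05, 7 were higher although 0 were called, where the share over all tested genes was 5.21%. Camk2a, which encodes a calcium/calmodulin-dependent kinase of excitatory neurons, had 3747, 1376, 1405 and 423 CPM in astrocytes against 167, 380, 241 and 309 CPM in stem cells (log2 fold change 2.66, SE 0.56, edgeR adjusted p = 0.0923). The synaptic genes Snap25 and Syp had log2 fold changes of 2.79 and 3.22, and Gria2, which encodes an AMPA receptor subunit, one of 0.96. Without astrocyte library a that of Syp was 1.64. Astrocyte library a had the highest level of Camk2a, Snap25 and Syp and library b that of Gria2, and library d had the lowest astrocyte level of all but Syp. The summed level of the list was 10987, 6356, 5679 and 2996 CPM in astrocytes a to d and 1820 to 2654 CPM in stem cells. The part of neuronal RNA in the fold changes of other genes was not tested.

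**Figure D3:**
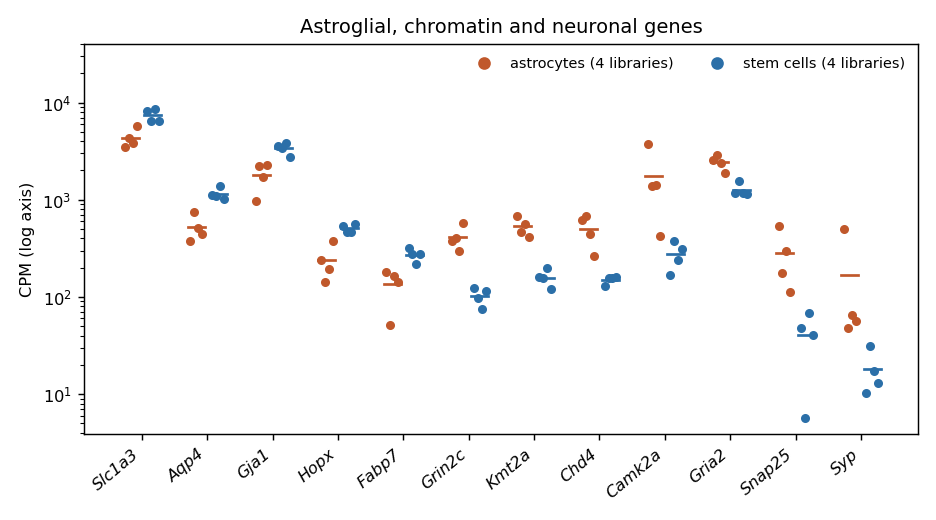
CPM (log axis) of astroglial, chromatin and neuronal genes in each library. Each point is a library and each short line the mean of 4. Astrocytes lie below stem cells for Slc1a3, Aqp4, Gja1, Hopx and Fabp7 and above them for Grin2c, Kmt2a, Chd4, Camk2a, Gria2, Snap25 and Syp.

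Markers of other cell types were found in libraries of both types. Oligodendrocyte precursor, myelin, microglial and mural cell genes had counts in every library, while the endothelial and ependymal sums were high in few. The oligodendrocyte precursor sum was 1155 to 2125 CPM in astrocytes and 1540 to 2011 CPM in stem cells. Of 6 myelin and mature oligodendrocyte genes tested 5 were positive (median 1.74), but without astrocyte library b 3 were positive and 3 negative and the median was 0.11. Their summed level of 311 to 2991 CPM in astrocytes overlapped the 455 to 839 CPM of stem cells. Mobp, a myelin gene, had all astrocyte libraries above (log2 fold change 3.02, SE 1.02, edgeR adjusted p = 0.289). For 5 oligodendrocyte precursor genes the median was 0.18, for 4 microglial genes 0.69 and for 4 mural cell genes 0.19, and their summed levels overlapped between the types. The signs of these 3 medians rested on single libraries. Without astrocyte library a the medians were -0.34 for microglial and -0.72 for mural cell genes, and the latter was -0.35 without astrocyte library d. The median of the oligodendrocyte precursor genes was -0.27 without astrocyte library c, -0.08 without d and -0.04 without stem cell library 4. None of the 14 endothelial genes and none of the 12 ependymal and choroid plexus genes passed the count filter. The summed endothelial level reached 124 CPM in astrocyte library b and 252 CPM in stem cell library 2, and lay between 1.16 and 16.3 CPM in the others. The summed ependymal and choroid plexus level was 54.9 CPM in astrocyte library b and 26.9 CPM in astrocyte library c, and at most 0.925 CPM in the others.

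Several genes of astroglial function had lower values in astrocytes than in stem cells. Among genes that reached 10 counts in every library and did not overlap, those of smallest p on the lower side were F3, Ugp2, Prdx6, Ckb, Rgcc, Omg, Aqp4, Dusp6, Slc1a3, Lmf2, Tspan7 and Fbln1. None of them passed the test, and their edgeR adjusted p lay between 0.0923 and 0.118. F3, which encodes tissue factor and is enriched in astrocytes, had 581, 972, 612 and 529 CPM in astrocytes against 1628, 1882, 2035 and 1221 CPM in stem cells (log2 fold change -1.33, SE 0.27). Aqp4, which encodes the water channel of astrocyte endfeet, had 372, 751, 510 and 449 CPM against 1126, 1082, 1388 and 1019 CPM (log2 fold change -1.15, SE 0.27). Prdx6, a peroxiredoxin gene, and Ckb, which encodes brain creatine kinase, had log2 fold changes of -1.02 and -0.81. The largest difference of these genes was that of Dusp6, which encodes a phosphatase of ERK, at 5.91, 2.22, 4.26 and 2.07 CPM in astrocytes against 60.7, 69.8, 71.7 and 24.9 CPM in stem cells (log2 fold change -3.97, SE 0.94). It was the 1 gene called lower when only genes with 10 counts in every library were tested.

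By lists, secreted and coupling genes had negative medians. Of 30 secreted and metal-binding astroglial genes tested, 25 had a negative fold change (median -0.46). All astrocyte libraries lay below for 6 and above for 1, where the shares over all tested genes were 6.37% and 3.61%. Apoe, which encodes the lipid carrier of astrocytes, was the most abundant named member of the list at 26519, 29593, 30020 and 32811 CPM in astrocytes against 50147, 37660, 41501 and 34281 CPM in stem cells (log2 fold change -0.46, SE 0.12, edgeR adjusted p = 0.155). Mfge8, which encodes a secreted phosphatidylserine-binding protein, had a log2 fold change of -1.06 and all astrocyte libraries below. Of 32 mature astrocyte genes 21 were negative (median -0.24, or -0.14 without stem cell library 1). All astrocyte libraries lay below for 5 of them and above for 2, where the shares over all tested genes were 6.37% and 3.61%, and their summed level of 22225 to 31332 CPM in astrocytes overlapped the 30507 to 38635 CPM of stem cells. Of 4 connexin and pannexin genes tested 3 were negative (median -0.56, or -0.27 without stem cell library 3), and the astrocyte connexin genes Gja1 and Gjb6 had log2 fold changes of -0.91 and -0.73. The summed connexin level of 1519 to 2978 CPM in astrocytes did not overlap the 3497 to 5044 CPM of stem cells. Genes of glutamate, GABA and glutamine handling had a median of -0.09 over 17 genes, 8 positive and 9 negative, and 0.16 without stem cell library 3. Their summed level was 12631 to 15691 CPM in astrocytes and 15840 to 19644 CPM in stem cells. The sort gene Slc1a3, lower in every astrocyte library, is a large part of that sum. The sum therefore does not describe the list as a whole. Potassium, water, sodium and bicarbonate transport genes had a median of -0.17 over 18 genes, between -0.52 and -0.10 with 1 library left out.

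A gene in the opposite direction was Grin2c, which encodes an NMDA receptor subunit found in mature astrocytes. It had 378, 408, 295 and 570 CPM in astrocytes against 124, 97.0, 75.5 and 115 CPM in stem cells, with every astrocyte library above (log2 fold change 2.0, SE 0.35, edgeR adjusted p = 0.0923). Grin2c was called in 4 of the 8 alternatives over all libraries, DESeq2 among them, and in 0 of the 8 fits without a library. Gfap, the intermediate filament of both cell types, had a log2 fold change of -0.13 (SE 0.37) with overlapping libraries, and was at 0.04 without astrocyte library a and 0.21 without stem cell library 3. Sox9, a glial transcription factor, had a log2 fold change of -0.74 (SE 0.36, edgeR adjusted p = 0.571).

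Most radial glia-like stem cell genes tested had lower values in astrocytes. Of 19 tested, 12 had a negative fold change (median -0.77). All astrocyte libraries lay below for 5 and above for 1, where the shares over all tested genes were 6.37% and 3.61%. The median was -0.54 without astrocyte library a and -0.33 without stem cell library 2, and the summed level of 1793 to 2772 CPM in astrocytes overlapped the 2536 to 3683 CPM of stem cells. Hopx, which encodes a homeodomain protein of quiescent stem cells, had 238, 143, 193 and 378 CPM in astrocytes against 543, 462, 461 and 566 CPM in stem cells (log2 fold change -1.09, SE 0.34, edgeR adjusted p = 0.242). Fabp7, which encodes the brain lipid-binding protein of radial glia, had 180, 52.0, 164 and 142 CPM against 315, 277, 218 and 277 CPM (log2 fold change -1.01, SE 0.43, edgeR adjusted p = 0.455). Sned1 was the member with all astrocyte libraries above (log2 fold change 1.59). Sox2 and Id4, which encode transcriptional regulators of stem cells, had log2 fold changes of 0.46 (SE 0.71) and 0.03 (SE 0.64), and the sign for Id4 changed with the fit. Of 36 S phase and mitosis genes only 9 were tested (median -0.68), and of these Rrm1 and Mcm6 had all astrocyte libraries below. Their median was -0.27 without astrocyte library a and -1.35 without astrocyte library d, and the summed level of 119 to 205 CPM in astrocytes overlapped the 121 to 180 CPM of stem cells. The median of 12 neurogenic and immature neuron genes was 0.31, and -0.16 without astrocyte library a.

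Glycolysis, fatty acid and cholesterol genes had negative medians, though none of these lists was tested as a group. Of 26 glycolysis, lactate and pyruvate genes, 21 had a negative fold change (median -0.57). All astrocyte libraries lay below for 6 and above for 0, where the shares over all tested genes were 6.37% and 3.61%. Aldoc, which encodes the brain aldolase, had 5969, 4722, 3514 and 7114 CPM in astrocytes against 9705, 7631, 11246 and 8868 CPM in stem cells (log2 fold change -0.81, SE 0.21, edgeR adjusted p = 0.147). Eno1 and Pkm, which encode enolase and pyruvate kinase, had log2 fold changes of -0.97 and -1.15. Of 30 fatty acid oxidation and synthesis genes 21 were negative (median -0.62), and of 31 cholesterol synthesis and transport genes 25 were (median -0.46). For these 3 lists the summed astrocyte levels lay below all stem cell levels, at 9911 to 16094 against 17587 to 26227 CPM, 5112 to 7250 against 7624 to 9466 CPM, and 30560 to 36800 against 38794 to 55344 CPM. Most of the cholesterol sum is Apoe, the lipid carrier gene given above with the secreted genes, so this sum is not a measure of cholesterol synthesis. Oxidative phosphorylation genes had overlapping summed levels and a median of -0.16 over 80 genes, 32 positive and 48 negative, or -0.36 without astrocyte library a, with astrocyte library a at 25965 CPM in sum and the other 7 libraries at 12564 to 16691 CPM.

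**Figure D4:**
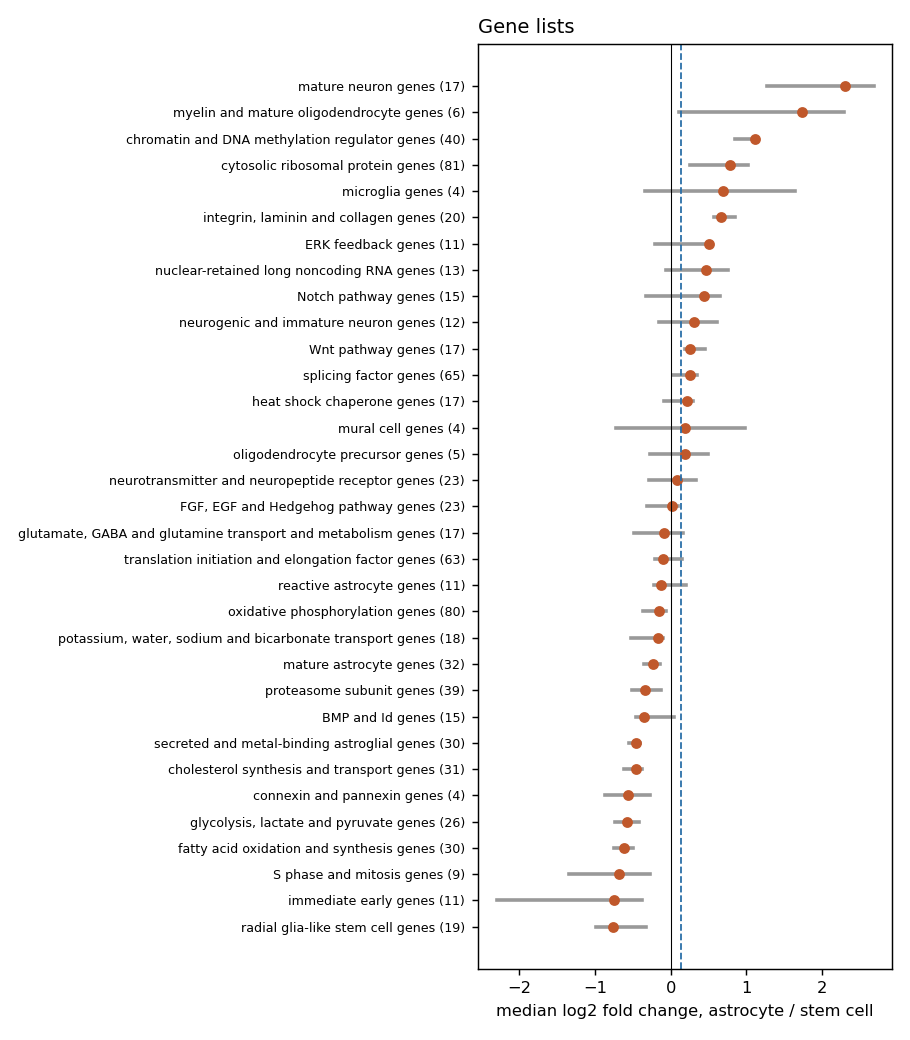
Median log2 fold change (astrocyte over stem cell) for 33 gene lists (points), with the number of tested genes in brackets. Grey bars run from the lowest to the highest median over the 8 fits from which a library was omitted, and the dashed line is the median of 0.14 over all tested genes. Mature neuron and chromatin genes lie to the right and radial glia-like, glycolysis, fatty acid and cholesterol genes to the left.

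Among other gene groups, 72 of 81 cytosolic ribosomal protein genes had a positive fold change (median 0.78), and the median was 0.26 without astrocyte library a. Nuclear-retained long noncoding RNA genes had a median of 0.47 over 13 genes, and -0.07 without astrocyte library a. Malat1, the most abundant gene among them, had 48530, 51718, 71822 and 48754 CPM in astrocytes against 28662, 41330, 27454 and 38782 CPM in stem cells (log2 fold change 0.70, SE 0.17, edgeR adjusted p = 0.0995). The medians were 0.67 for 20 integrin, laminin and collagen genes, 0.50 for 11 ERK feedback genes, 0.44 for 15 Notch pathway genes, 0.25 for 17 Wnt pathway genes and 0.22 for 17 heat shock chaperone genes. They were 0.08 for 23 neurotransmitter and neuropeptide receptor genes, 0.02 for 23 FGF, EGF and Hedgehog pathway genes, -0.10 for 63 translation factor genes, -0.13 for 11 reactive astrocyte genes, -0.33 for 39 proteasome subunit genes, -0.35 for 15 BMP and Id genes and -0.74 for 11 immediate early genes. Several of these medians changed sign without a single library. That of the ERK feedback genes was -0.21 without astrocyte library a, and those of the Notch and heat shock genes were -0.32 and -0.09 without astrocyte library b, the latter also -0.01 without c. Without stem cell library 3 the reactive astrocyte median was 0.21 and the BMP and Id median 0.04, and the former was 0.04 without astrocyte library a. The median of the immediate early genes moved from -0.38 without astrocyte library a to -2.30 without astrocyte library b, and that of the proteasome genes from -0.51 without astrocyte library a to -0.13 without stem cell library 1. The median of the translation factors was 0.15 without stem cell library 4 and 0.01 with DESeq2-type size factors, which moved the median of all genes to 0.22. In each of these 12 lists at most 3 members had all astrocyte libraries above and at most 3 all below, and 0 members were called by edgeR. The shares over all tested genes were 3.61% above, 6.37% below and 0.0468% called.

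Detection differed between the cell types. There were 127 genes with at least 10 counts in all 4 stem cell libraries and at most 3 in each astrocyte library, and 1 gene of the reverse kind. Those with the highest median count in stem cells were Tfam, which encodes the mitochondrial transcription factor A, Ppm1g, a protein phosphatase gene, Plpp7, Eif2b1, which encodes a subunit of the eIF2B exchange factor, and Ttc30b, a gene of intraflagellar transport. The floor was set at 3 counts in each astrocyte library, which covers counting error only and not failed detection. In that order, the mean stem cell levels were 70.0-fold, 86.4-fold, 71.2-fold, 77.2-fold and 73.6-fold the astrocyte floor. Because these genes were picked for low counts in astrocytes and high counts in stem cells, a large ratio was set by the choice. The edgeR adjusted p of these genes lay between 0.0869 and 0.0923, and none passed the test. The reverse gene was Mogs, which encodes glucosidase I of the endoplasmic reticulum. Its mean astrocyte level was 42.5-fold the stem cell floor (edgeR adjusted p = 0.157). Of the 100 genes of smallest p on the lower side, 83 were at the astrocyte floor, whereas 0 of the 100 of smallest p on the higher side were at the stem cell floor. Astrocyte libraries also held fewer detected genes, and its part in these differences was not tested.

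Direction varied with exonic length, taken as all bases in the annotated exons of a gene. With the genes split into 5 bins of equal size by exonic length, the median log2 fold change was 0.0031, -0.15, 0.01, 0.21 and 0.53 from the shortest to the longest. In the longest bin 8.88% of genes had all astrocyte libraries above and 3.17% had all below, against 2.35% and 8.44% in the shortest. Among the 5662 genes that reached 10 counts in every library these shares were 15.7% and 1.06% in the longest bin and 4.69% and 7.43% in the shortest. The 100 genes of smallest p had a median exonic length of 10516 bases on the higher side and 2734.5 bases on the lower side, against 4160.5 bases over all tested genes. Across genes, which are not independent replicates, Spearman's rho of fold change with exonic length was 0.15 over 12786 genes. It was 0.23 over the 5653 that reached 10 counts in every library. The rho of fold change with mean log2 CPM was 0.16 and -0.03 over the same sets. Cytosolic ribosomal protein genes went against the trend, with a median exonic length of 1781 bases and 72 of 81 fold changes positive. Chromatin genes such as Kmt2a and Kmt2d are long, and the part of length in their fold changes was not tested. By annotated class, the median was 0.12 for 10631 protein-coding genes, 0.27 for 279 lincRNA genes, 0.31 for 531 antisense genes and 0.13 for 433 processed pseudogenes.

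**Figure D5:**
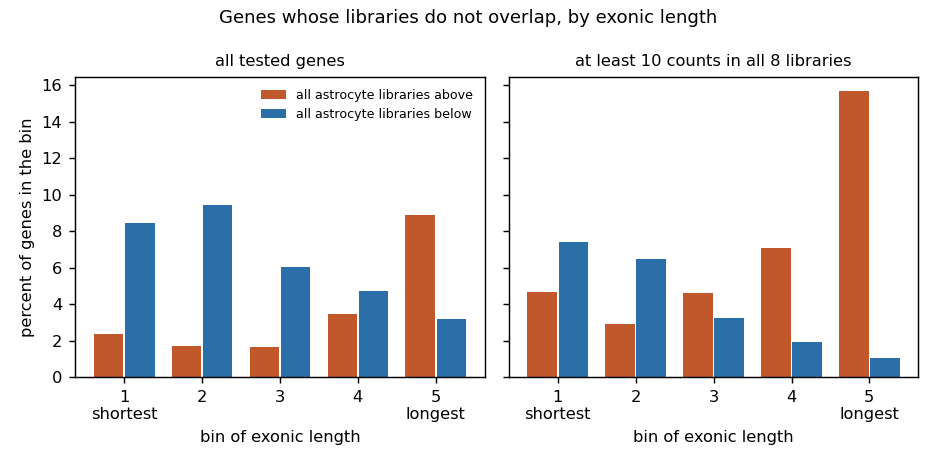
Percent of genes in each of 5 bins of exonic length (x axis, shortest to longest) whose 4 astrocyte libraries all lay above (orange) or all below (blue) the 4 stem cell libraries. The left panel holds all tested genes and the right panel those that reached 10 counts in every library, and the orange share is highest in the longest bin of both, at 8.88% and 15.7%.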

How the data were processed

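RNA was measured by limited-cell RNA-seq in 8 libraries, 4 per cell type, each from 50 sorted cells. Per the labels and the paper's methods, the authors trimmed adapters, removed ribosomal RNA, mitochondrial and PhiX reads, aligned with HISAT2 2.0.6 to GRCm38.p4 and counted reads on GENCODE M14 genes with featureCounts without strand. The deposited values are raw counts. Symbols and positions came from GENCODE M21 (50376 of 50600 identifiers matched).

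The test was edgeR's quasi-likelihood test (version 4.0.16, R 4.3.3, not robust) after TMM scaling, with a Benjamini-Hochberg threshold of 0.05, and the steps were tested on simulated data. P-values measure the spread between these libraries, which the paper calls biological replicates. No libraries of a type held identical values. Named genes followed a rule: all called genes, the 12 of smallest p in each direction with 10 counts in all 8 libraries and no overlap, up to 4 of smallest p in each of 35 lists (1078 of 1080 entries matched), the sort genes, those the paper names, and up to 5 per direction absent from the other type. Not every gene named by the rule is printed. The members and lists were chosen with earlier results of these data known. Alternatives were DESeq2 1.42.0, limma 3.58.1 (voom with quality weights), DESeq2-type size factors, other filters, all 12 libraries, thinned counts and each library left out. The paper used DESeq2 after CLEAR, which needs base coverage and was not run. By that route it reported Grin2c as higher in astrocytes and Hopx and Fabp7 as higher in stem cells. The main edgeR fit called none of these genes. Over all libraries, Hopx was called in 1 of 8 alternatives and Fabp7 in 0 of 7.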

Additional observations from a re-analysis of the deposited data

Results flagged for a closer look

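In groups of 4 libraries, single libraries stood far from the other 3 in 11 of 114 groups examined. The cutoff flags about 1 in 20 groups of independent, normally distributed values. CPM values need not be normal, and some groups share genes, such as Malat1 and its list. The 11 flags therefore cannot be set against that rate. The ribosomal RNA gene CT010467.1 had 8350 CPM in astrocyte library c and 1301 to 1887 CPM in the other astrocyte libraries. Malat1 had 71822 CPM in astrocyte library c, and with it the summed level of nuclear-retained long noncoding RNA genes was 72636 CPM there against 49536 to 53036 CPM in the other astrocyte libraries. Summed oxidative phosphorylation genes were at 25965 CPM in astrocyte library a and at 12564 to 13243 CPM in the others. Summed BMP and Id genes were at 1898 CPM in astrocyte library b and 943 to 1010 CPM in the others, and at 1117 CPM in stem cell library 4 and 1808 to 1897 CPM in the others. Summed FGF, EGF and Hedgehog pathway genes were at 1336 CPM in stem cell library 4, below 1462 to 1483 CPM. Chd4 was at 130 CPM in stem cell library 1, below 155 to 159 CPM. Summed endothelial genes were at 124 CPM in astrocyte library b and at 252 CPM in stem cell library 2, above at most 16.3 CPM in the other libraries of each type. Summed ependymal and choroid plexus genes were at 0.925 CPM in stem cell library 3 and at most 0.122 CPM in the other stem cell libraries. The same sum was far higher, at 54.9 and 26.9 CPM, in astrocyte libraries b and c, which were not flagged.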

How the results depend on the processing

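No paired analysis was possible because the astrocyte columns carry no replicate numbers. The 6 genes called higher in astrocytes were also called in all 8 alternatives over all libraries, whereas the counts of calls changed with the setting. DESeq2 called 361 higher and 274 lower genes, limma-voom with quality weights 49 and 4, the fit over all 12 libraries 147 and 196, the 4000 highest genes of every library 130 and 65, 10 counts in every library 11 and 1, and no count filter 16 and 0. DESeq2-type size factors called 8 and 0 and thinned counts 6 and 0. The share of higher genes among those called was 56.9% with DESeq2 and 42.9% with all 12 libraries, against 100% in edgeR over the 8. With 1 library left out, and with the looser filter of those fits, between 0 and 7 genes were called higher and between 0 and 1 lower. With 10 counts in every library, 320 genes had all astrocyte libraries above and 304 below, so the excess of lower genes over the 8 libraries (463 against 817) was not seen among these genes. With 1 library left out the log2 fold change of Gfap lay between -0.31 and 0.21 and that of Id4 between -0.18 and 0.17. Id4 was also at -0.12 with limma-voom and at -0.14 with 10 counts in every library. Of 356 list medians recomputed, 331 moved by less than the spread between replicates (1 standard deviation) and 25 by more. Most of these were fits with 1 library left out. Leaving out 1 of 4 libraries moves a group mean by less than this spread whatever the values. The count therefore cannot show that the medians were stable. The medians of the FGF, EGF and Hedgehog list changed sign in 6 and those of the receptor list in 4 of the 8 left-out fits. Causes were not tested. Depth limits the genes with few counts, since a floor of 3 counts was 0.556 CPM on average in astrocytes and 0.381 CPM in stem cells.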
